A study of Mus musculus with 5 samples.

Results

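The genes described here encode the main families of axon and cell guidance molecules: Eph receptors and their ephrin ligands, semaphorins and their plexin and neuropilin receptors, Slits and their Robo receptors, and netrins. Members were taken by gene symbol. The rule took every Eph, ephrin, semaphorin (classes 3 to 7), plexin, neuropilin, Slit, Robo and netrin symbol in the deposited table except Epha2, and found 62 of 19699 entries. They comprise 13 Eph receptors, 8 ephrins, 20 semaphorins, 9 plexins, 2 neuropilins, 3 Slits, 4 Robos and 3 netrins.

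Bulk RNA-seq had been made from the main airway section, trachea and lung included, of C57 mouse embryos at stage E13.5, when the lung is branching. The 2 mutant libraries came from embryos whose lung epithelium had lost Prmt5, which encodes a methyltransferase that marks arginine residues on histones and other proteins. Shh stands beside Prmt5 in the genotype that the design text gives, while the genotype label calls the mutants a knockdown. The 3 control libraries came from littermates labelled WT. Whether they carried the Shh allele is not said, so loss of Prmt5 and that allele cannot be told apart. The comparison of mutant with control asked what changes in the airways when the epithelium loses Prmt5. The labels do not say how many embryos went into a library, so p-values measure only the variation among these 5 libraries, which could be technical.

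Guidance molecules tell a growing axon or a migrating cell where to go. Ephrins are anchored to the cell surface and signal to Eph receptor tyrosine kinases on a neighbouring cell, and the ephrin-bearing cell can respond in turn. Class 3 semaphorins are secreted and act through a neuropilin paired with a plexin, whereas most other semaphorins bind plexins directly. Slits are secreted ligands of Robo receptors, and netrins are laminin-like proteins that act through Dcc, neogenin and Unc5 receptors. The same molecules steer vessels, nerves and mesenchymal cells, and netrins and semaphorins are known to act in the branching of the embryonic lung.

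Depth ran from 15652503 to 18682463 reads per library. The values are FPKM, fragments scaled to gene length and to the number of reads of the library, which allow levels to be compared between genes. Prmt5 itself was at 23.7 and 20.1 FPKM in mutant libraries and at 28.7, 26.4 and 25.8 FPKM in control libraries, a log2 change of -0.29 that did not pass (limma, adjusted p = 0.234). The libraries are whole tissue while the loss is epithelial, so this checks the labels only in part. Xist, which coats the inactive X in female cells, was at 0.0673 and 0.289 FPKM in mutant libraries and at 57.3 to 115 FPKM in the controls. The summed level of 4 Y-linked genes was 27.1 to 31.5 FPKM in mutant libraries and 4.49 to 23.0 FPKM in the controls, so sex make-up differed with genotype. Each control library held both Xist and Y-linked RNA, as a mix of male and female embryos would. The number of embryos per library stays unknown. Lung and mesenchyme markers were present in all libraries, with Nkx2-1, Epcam, Tbx4 and Col1a1 all above 0.

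In the mutants, the ephrin receptor gene Epha3 rose and the netrin gene Ntn1 fell. Epha3 was 1.75-fold higher and Ntn1 was 2.24-fold lower, each with groups that did not overlap. No other member passed the test. Values near the threshold without passing it were higher in the mutants for Sema3a, Efnb2 and Plxna1 and lower for Efna5 and Nrp2.

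Of the 62 members, 54 reached 1 FPKM in at least 2 libraries and were tested across all genes with limma on log2(FPKM + 1). An adjusted p under 0.05 was reached by 2 of the 54, 1 higher and 1 lower. The background was 2.36% of the 12838 genes tested, 0.989% higher and 1.37% lower, so the members' share of 3.70% lies near it. At an unadjusted p under 0.05 there were 18 members (33.3%, against 18.9% of all genes), of which 7 were higher and 11 lower (against 6.53% and 12.3%). Mutant and control values did not overlap for 26 members (48.1%, against 37.6% of all genes), with the mutants above in 9 and below in 17 (against 13.2% and 24.4%). The median log2 change was -0.15 over the tested members and -0.06 over all genes, and 35 of 54 members lay below 0, compared with 61.1% of all genes. Among all genes the split of 127 higher and 176 lower calls became 133 and 115 with quantile normalization and 112 and 277 with TPM computed without Gm23935, the entry with the highest mean FPKM. The 2 member calls were the same under both.

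**Figure D1:**
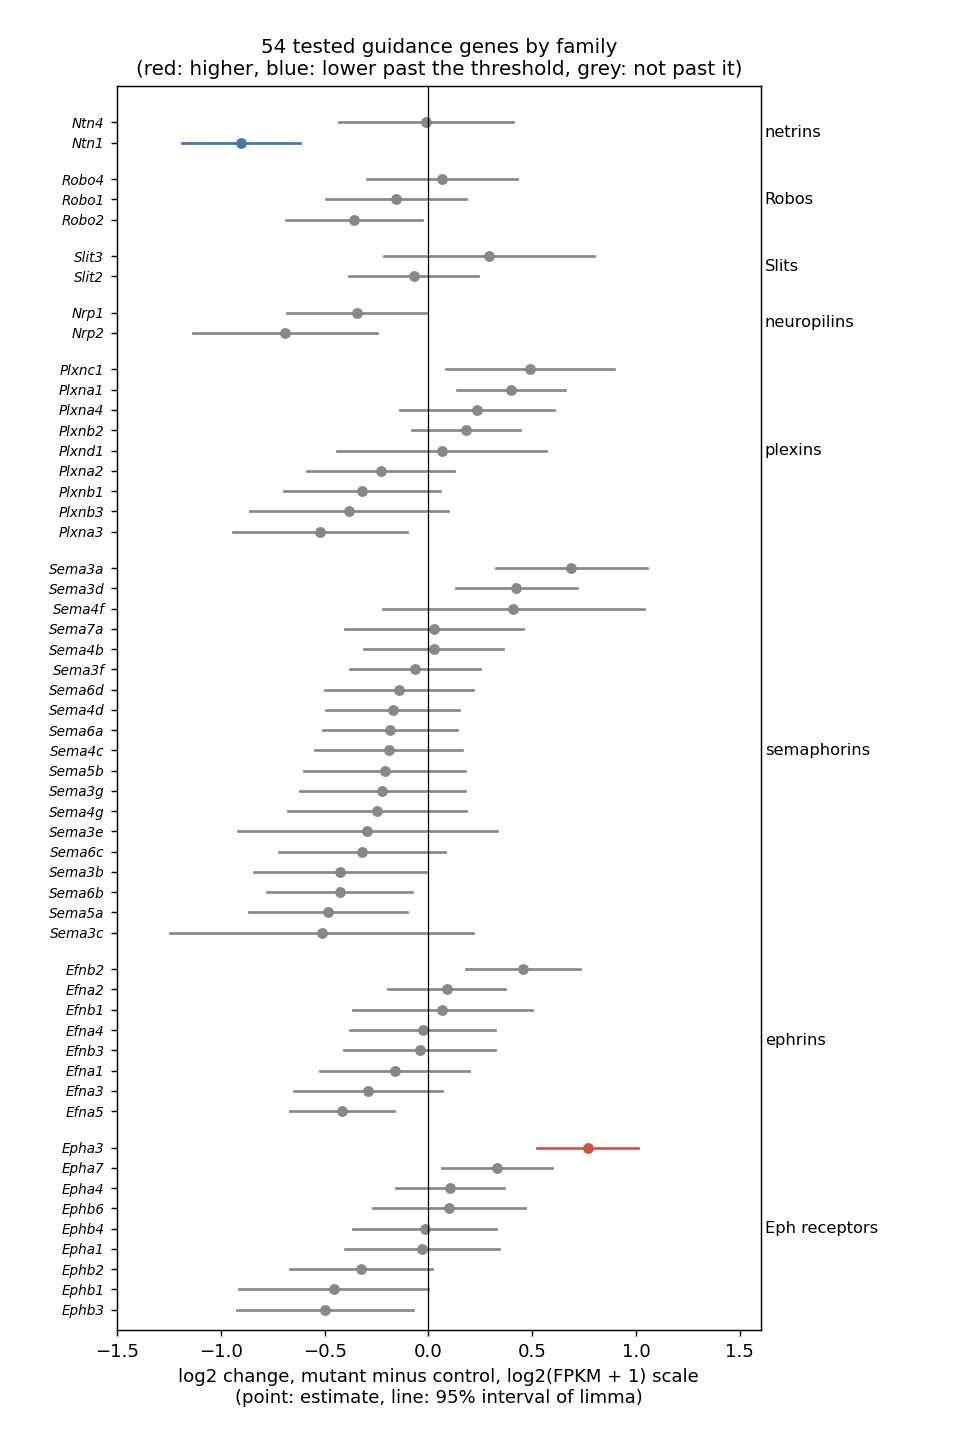
Log2 change (mutant minus control, log2(FPKM + 1) scale) of the 54 tested members grouped by family, as point estimates with 95% intervals from limma. Epha3 at 0.77 and Ntn1 at -0.90 are the coloured points past the threshold, and grey points did not pass.

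The calls rested on having both mutant libraries. Leaving out mutant replicate 1 or mutant replicate 2 ended the calls of Epha3 and Ntn1. Each of these fits holds 1 mutant library. The log2 changes themselves stayed at 0.76 and 0.78 for Epha3 and at -0.90 in both fits for Ntn1. The mutant libraries differed from each other across the families. Mutant replicate 2 lay below mutant replicate 1 for 48 of the 54 tested members (88.9%), compared with 70.7% of all genes, and the median log2 difference between them was -0.24 for the members and -0.11 for all genes. Its median ratio factor was 0.923, while the other libraries lay between 1.00 and 1.05. When the male share was added to the fit as a covariate, neither Epha3 (adjusted p = 0.0883) nor Ntn1 (adjusted p = 0.161) passed.

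Eph receptors come in an A class, which mainly binds the lipid-anchored ephrin-A ligands, and a B class, which mainly binds the transmembrane ephrin-B ligands. Of the 13 Eph receptor genes among the members, which leave out Epha2, 9 were tested, 1 was higher and none lower. That is 11.1%, against 2.36% of all genes, and the difference in share was not tested. Epha3, a receptor of mesenchymal and neural cells in the embryo, was at 25.5 and 25.1 FPKM in mutant libraries and at 14.0, 13.9 and 15.4 FPKM in control libraries. Both mutants stood well above all 3 controls, and the replicates of each group lay close together. Its log2 change was 0.77 (SE 0.10, adjusted p = 0.0168 with limma), from 2276 and 2222 reads in mutants and 1484, 1285 and 1592 reads in the controls. A two-sided exact permutation test on FPKM gave p = 0.1, which is as low as 2 against 3 libraries can reach. This permutation test was run on Epha3, Ntn1 and Prmt5 only, and it adds nothing to the lack of overlap. Epha3 took 19.7% ± 1.76 (SD, n = 2) of the summed FPKM of the 13 Eph receptors in the mutants and 11.7% ± 0.519 (SD, n = 3) in the controls. In the order of member levels it stood at place 5 in the mutants and at place 17 in the controls.

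Epha3 lies on chromosome 16, from 63543534 to 63864175 on the minus strand (GRCm38). The 250 bases before its start are shown with those of Sema3a and Efnb2, the 2 members with the next smallest p among those above the controls, because the 3 windows differ widely in sequence composition although both mutants were above all controls for each gene. They are RefSeq windows of GRCm38.p6, written 5′ to 3′ on the strand of the gene, and capitals mark every CG dinucleotide. The Sema3a window precedes a RefSeq start that lies inside the GENCODE span of the gene, 13125414 to 13602565. It is therefore not the sequence before that span, which limits its comparison with the other windows.
Epha3, chr16:63864176-63864425, minus strand: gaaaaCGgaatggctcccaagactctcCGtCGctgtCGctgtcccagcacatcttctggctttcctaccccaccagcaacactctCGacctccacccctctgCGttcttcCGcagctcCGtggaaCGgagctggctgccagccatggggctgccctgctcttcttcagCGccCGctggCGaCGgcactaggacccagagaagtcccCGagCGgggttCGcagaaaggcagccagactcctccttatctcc
Sema3a, chr5:13396534-13396783, plus strand: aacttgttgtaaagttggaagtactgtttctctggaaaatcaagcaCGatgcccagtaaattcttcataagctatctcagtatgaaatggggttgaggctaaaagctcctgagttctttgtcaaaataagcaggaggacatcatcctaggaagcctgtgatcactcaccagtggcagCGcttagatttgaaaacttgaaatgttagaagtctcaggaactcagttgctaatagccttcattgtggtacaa
Efnb2, chr8:8661243-8661492, minus strand: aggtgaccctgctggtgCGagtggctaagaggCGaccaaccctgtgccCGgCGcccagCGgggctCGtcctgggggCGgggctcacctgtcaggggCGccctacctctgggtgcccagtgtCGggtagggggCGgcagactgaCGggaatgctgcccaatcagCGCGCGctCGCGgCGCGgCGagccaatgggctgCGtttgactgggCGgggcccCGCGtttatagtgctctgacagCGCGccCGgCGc
The Epha3 window holds 16 CG dinucleotides at 62.8% G and C, the Sema3a window 2 at 40.8%, and the Efnb2 window 27 at 72%. Over the 70 windows of the 54 members that the RefSeq table lists, the median was 15 CG dinucleotides and 64.2% G and C. It was 6 and 52.4% over all 32851 windows of the table, which also hold non-coding and predicted genes. These 54 members are not the 54 tested ones. Untested genes such as Epha5 and Robo3 are among them, while Ntn1 and Plxna1 have no window. The GC box GGGCGG, read on both strands, occurs in 70% of the member windows and in 32.7% of all windows. GGCGCC, a GC-rich element known to bind SMAD proteins, occurs in 18.6% and 9.59%, and TATAAA in 2.86% and 12.4%. All 3 motifs were read on both strands. Of the 3 windows shown, that of Efnb2 holds 3 GC boxes, 2 copies of GGCGCC and 1 TATAAA. This TATAAA is on the strand opposite to the gene, so the printed letters show its reverse complement. The windows of Epha3 and Sema3a hold no match on either strand.

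The other EphA receptors among the members were nearer to the controls. Epha2, which the rule leaves out, moved farther than Epha3 and is given below. Epha7, at 14.3 and 13.0 FPKM against 10.2, 10.3 and 11.5 FPKM, had both mutants above all controls (log2 change 0.33, adjusted p = 0.177). Epha4, which acts in limb nerve guidance, and Epha1 overlapped between groups, at log2 changes of 0.10 and -0.03. The 4 remaining EphA genes were not tested, with group means of 0.677 and 0.818 FPKM for Epha5 (mutant, then control), and lower for Epha6, Epha8 and Epha10. Over the 4 tested EphA members, Epha2 left out, the median log2 change was 0.22. Of these, 3 were above 0 and 1 below (25%, against 61.1% of all genes).

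No EphB receptor passed. The median log2 change of the 5 EphB genes was -0.32, with 4 below 0 (80%, against 61.1% of all genes). Ephb3, at 16.8 and 12.5 FPKM against 19.9, 17.8 and 25.6 FPKM, had a log2 change of -0.50 (adjusted p = 0.198). Ephb1 and Ephb2 also had both mutants below all controls, at log2 changes of -0.46 and -0.32. Ephb4, the receptor of veins and the most abundant Eph gene in every library, did not follow them. It was at 52.0 and 43.5 FPKM in mutant libraries and at 40.9, 52.6 and 52.0 FPKM in control libraries, with overlapping groups (log2 change -0.02, 95% interval -0.36 to 0.33). Ephb6, a receptor without kinase activity, was at 0.10. The difference between the A and B classes was not tested. Epha2, which the rule leaves out, was at 16.8 and 13.8 FPKM against 4.65, 5.01 and 3.76 FPKM (log2 change 1.57, SE 0.15, adjusted p = 0.00644 with limma).

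All 8 ephrin genes were tested and limma called none. At an unadjusted p under 0.05, 1 was higher and 1 lower (25%, against 18.9% of all genes). Efna5, an ephrin-A ligand that binds EphA3, was at 8.01 and 7.88 FPKM in mutant libraries and at 10.4, 10.8 and 11.6 FPKM in control libraries. Both mutants lay below all controls by more than the spread within either group (log2 change -0.42, SE 0.11, adjusted p = 0.0925). The level of Epha3 divided by that of Efna5 was 3.19 in each mutant and 1.29 to 1.35 in the controls, a ratio chosen after the values were seen. Efnb2, the ephrin of arteries and partner of Ephb4, was at 16.7 and 16.6 FPKM in mutant libraries and at 10.8, 13.2 and 11.7 FPKM in controls (log2 change 0.45, SE 0.12, adjusted p = 0.0942). Its mutants agreed closely and stood above all controls.

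Efnb1, on the X chromosome, was the most abundant ephrin. It was at 45.6 and 34.2 FPKM in mutant libraries and at 31.1, 38.0 and 45.2 FPKM in control libraries, so the groups overlapped (log2 change 0.07, 95% interval -0.36 to 0.50; -0.0029 with TPM without Gm23935). The neighbouring ephrin-A genes on chromosome 3, Efna1, Efna3 and Efna4, had log2 changes of -0.16, -0.29 and -0.03. Efna2 and Efnb3 were at 0.09 and -0.04. Summed over the family, ephrin levels came to 131 ± 17.7 FPKM (SD, n = 2) in mutants against 130 ± 13.1 FPKM (SD, n = 3) in controls. Those of Eph receptors, Epha2 left out, were 129 ± 13.2 and 124 ± 10.6 FPKM. Both family sums differed by less than the spread between replicates.

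**Figure D2:**
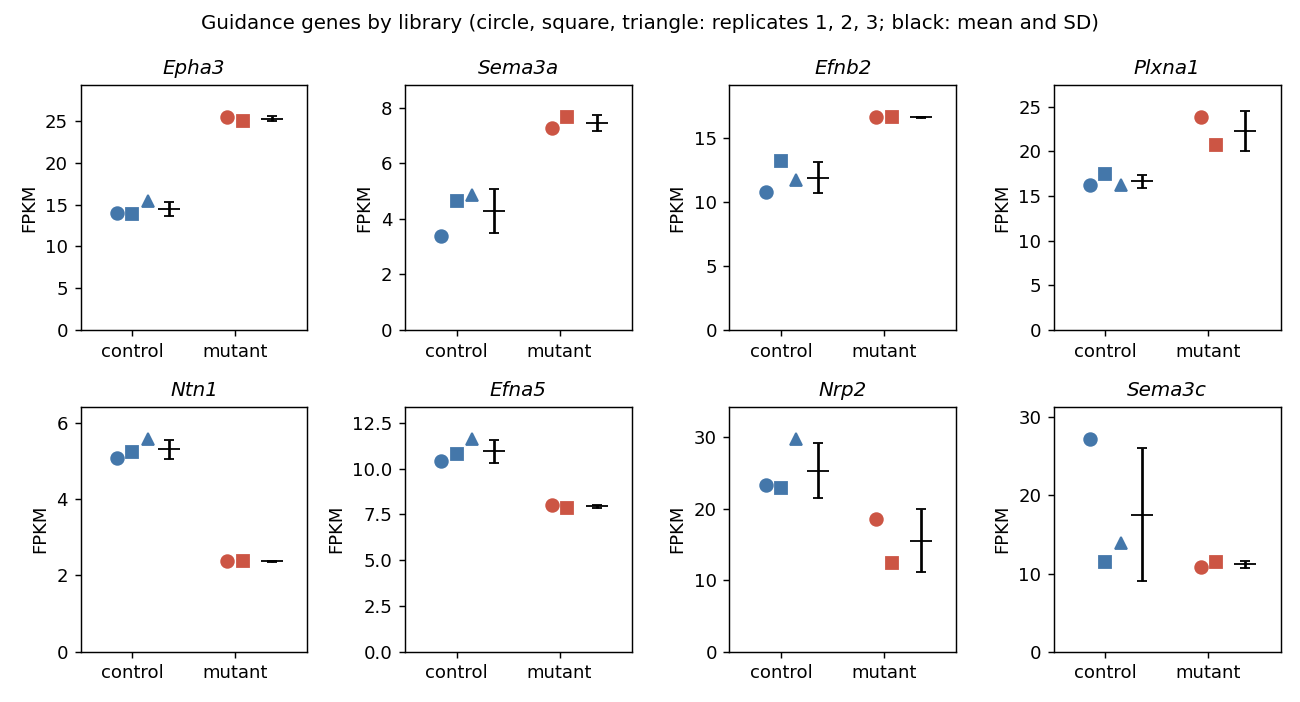
FPKM of 8 members in each library, controls in blue and mutants in red, with marker shapes for replicates and black bars for the mean and SD (n = 3 and n = 2). Epha3, Sema3a, Efnb2 and Plxna1 have both mutants above the controls, Ntn1, Efna5 and Nrp2 both below, and Sema3c overlaps, with control replicate 1 far above the other libraries.

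Semaphorins mostly repel the cells and axons that meet them. Of 20 genes 19 were tested and limma called none, while voom on the recovered reads, whose background was 4.77%, called Sema3a. At an unadjusted p under 0.05 there were 2 higher and 3 lower (26.3%, against 18.9% of all genes). The median log2 change was -0.19, with 14 of 19 below 0 (73.7%, against 61.1% of all genes).

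Sema3a, a secreted repellent of sensory and sympathetic axons, was at 7.25 and 7.67 FPKM in mutant libraries and at 3.38, 4.64 and 4.84 FPKM in control libraries. Both mutants stood above all controls, 1.74-fold in the mean. The log2 change was 0.69 (SE 0.16) with an adjusted p = 0.0684 by limma and 0.0229 by voom. Sema3d was the other class 3 gene with both mutants above, at 11.4 and 12.7 FPKM against 8.84, 7.78 and 9.57 FPKM (log2 change 0.42, adjusted p = 0.127). The remaining 5 class 3 genes lay below 0 on the log2 scale.

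Sema3c, known for its part in the outflow tract of the heart, was the most abundant semaphorin in the mean of the 5 libraries, through 1 of them. It was at 10.9 and 11.5 FPKM in mutant libraries and at 27.3, 11.5 and 13.9 FPKM in control libraries. Control replicate 1 was far above the rest, and the other controls were close to the mutants. The log2 change was -0.51 (adjusted p = 0.436), and -0.16 without control replicate 1 (adjusted p = 0.584). That control was also the richest in epithelial markers, at a summed 815 FPKM over 14 genes, where the other controls had 419 and 313, and the part of this in Sema3c was not tested. Sema3e, a vessel repellent that binds plexin D1, was at 2.15 and 2.43 FPKM against 4.69, 2.96 and 1.90 FPKM, again with control replicate 1 on top (log2 change -0.29, adjusted p = 0.62).

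Sema3f, a ligand of neuropilin 2, overlapped between groups at 11.5 and 9.27 FPKM against 10.1, 12 and 10.6 FPKM (log2 change -0.06; 0.0127 with median ratio scaling and 0.0069 with quantile normalization). Sema3b had both mutants below all controls (log2 change -0.43, adjusted p = 0.252), and Sema3g was at -0.22. Sema3d, Sema3a, Sema3e and Sema3c follow one another on chromosome 5, between 12383385 and 17730268. Along that stretch the log2 changes were 0.42, 0.69, -0.29 and -0.51, above 0 for the first pair and below 0 for the last. On chromosome 9, Sema3b (107597674 to 107609229) and Sema3f (107681500 to 107710475) were at -0.43 and -0.06.

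The membrane-bound semaphorins showed small differences. In class 4, the 5 tested genes ran from a log2 change of -0.25 for Sema4g to 0.41 for Sema4f, with Sema4b, Sema4c and Sema4d between them. Sema4f varied widely in the controls, at 2.57, 4.43 and 1.86 FPKM against 4.73 and 3.48 FPKM. Sema4a was not tested. It reached 1 FPKM in 1 library only, at 1.14 and 0.922 FPKM in mutant libraries and 0.842, 0.771 and 0.792 FPKM in the controls. Both class 5 genes lay below 0. Sema5a was at 13.2 and 9.82 FPKM against 14.6, 15.8 and 19.0 FPKM (log2 change -0.48, adjusted p = 0.168), and Sema5b was at -0.21. All 4 class 6 genes lay below 0, as did 61.1% of all genes. They ran from -0.43 for Sema6b to -0.14 for Sema6d, with Sema6a and Sema6c at -0.18 and -0.32. Sema7a, the lipid-anchored member, was at 0.03.

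Neuropilins are the co-receptors through which class 3 semaphorins act, and they also bind VEGF. Both had mutants below all controls (against 24.4% of all genes) and neither passed. Nrp2, which favours Sema3f, was at 18.6 and 12.4 FPKM in mutant libraries and at 23.3, 22.9 and 29.8 FPKM in control libraries. The mutants were far apart, and the gap between groups was narrower than the spread within either (log2 change -0.69, SE 0.19, adjusted p = 0.11). Leaving out mutant replicate 2 left a log2 change of -0.41, and leaving out mutant replicate 1 gave -0.97. Nrp1, which favours Sema3a, was at 17.2 and 16.8 FPKM against 21.3, 18.8 and 25.9 FPKM (log2 change -0.35, SE 0.14, adjusted p = 0.252). The level of Nrp2 divided by that of Nrp1 was 1.08 and 0.737 in the mutants and 1.09 to 1.22 in the controls.

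Plexins carry the semaphorin signal into the cell by acting on small GTPases. Of 9 genes, 4 had both mutants above all controls, 4 had both below and 1 overlapped. That is 88.9% without overlap, against 37.6% of all genes, and the difference in share was not tested. Plxnb3, among those below, passed the filter through controls alone. Limma and voom called none, and 3 had an unadjusted p under 0.05 (33.3%, against 18.9% of all genes). Plxna1, a partner of neuropilin 1 in Sema3a receptors, was at 23.9 and 20.7 FPKM in mutant libraries and at 16.2, 17.5 and 16.2 FPKM in controls (log2 change 0.40, SE 0.11, adjusted p = 0.112). Plxnc1, the receptor of Sema7a, was at 7.30 and 7.09 FPKM against 3.84, 4.75 and 6.13 FPKM (log2 change 0.49, adjusted p = 0.184). Plxna4 was above as well, at 0.23.

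Plxnb2 was the most abundant member of all 62 genes in both groups. It was at 67.0 and 57.9 FPKM in mutant libraries and at 52.2, 54.5 and 57.6 FPKM in control libraries. Mutant replicate 2 lay barely above the highest control (log2 change 0.18, SE 0.11, adjusted p = 0.439). Plxnd1, a vascular receptor of Sema3e, overlapped at 41.7 and 31.6 FPKM against 26.0, 38.3 and 41.9 FPKM (log2 change 0.06, 95% interval -0.44 to 0.56; -0.0061 with TPM without Gm23935). The plexins below the controls were Plxna2, Plxna3, Plxnb1 and Plxnb3, at log2 changes of -0.23, -0.52, -0.32 and -0.38.

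Plxna3 and Plxnb3 lie on the X chromosome. Plxna3 was at 7.77 and 4.99 FPKM in mutant libraries and at 10.1, 8.32 and 9.95 FPKM in control libraries, and Plxnb3 was at 0.899 and 0.453 FPKM against 1.22, 0.963 and 1.33 FPKM. Xist moved with these groups as given above, while the third X-linked member, Efnb1, overlapped. With the male share as a covariate, Efnb1 was at a log2 change of 0.34 (adjusted p = 0.764 with limma). Values of that fit are not given here for Plxna3 and Plxnb3, and the part of sex make-up was not tested further. Plxnb3 passed the filter through 2 controls alone, so its difference is partly set by that filter.

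Ntn1 encodes netrin 1, a diffusible guidance cue that is laid down around the epithelial stalks of the branching lung. It was at 2.37 and 2.36 FPKM in mutant libraries and at 5.07, 5.24 and 5.58 FPKM in control libraries. Every mutant value was less than every control value, with little spread in either group. The log2 change was -0.90 (SE 0.12, adjusted p = 0.0163 with limma), from 234 and 232 reads in mutants and 595, 536 and 638 reads in the controls. The exact permutation test again gave its lowest possible p = 0.1. The two-sided exact permutation test on FPKM gave p = 0.1 for Prmt5 as well, which limma did not call. The permutation test therefore does not set the called members apart from uncalled genes whose groups do not overlap. The gene lies on chromosome 11, from 68209364 to 68400823 on the minus strand (GRCm38). In bulk tissue fewer cells of a type and less RNA per cell cannot be told apart.

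Ntn4, a netrin of basement membranes, was at 1.65 and 1.11 FPKM against 1.55, 1.31 and 1.29 FPKM (log2 change -0.01, 95% interval -0.43 to 0.41). Ntn5 was not tested, with 10 reads in mutants against 26 in controls. Ntn1 thus took 55.6% and 66.0% of the summed netrin FPKM in mutant libraries and 71.9% to 79.5% in the controls. The call of Ntn1 was lost with no filter on low values (adjusted p = 0.0715).

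Of 12 listed genes of netrin receptors and modulators, 5 were tested and limma and voom called none. At an unadjusted p under 0.05 there was 1 (20%, against 18.9% of all genes). Neo1, which encodes neogenin, a receptor of netrins and repulsive guidance molecules, was at 43.6 and 39.2 FPKM against 32.8, 36.2 and 40.4 FPKM (log2 change 0.18). Unc5b, a receptor of vessels, and Unc5a had both mutants above all controls, at 0.48 each (adjusted p = 0.294 and 0.234). Dcc, the attractive receptor, was under 1 FPKM in every library and was not tested. The ligands of neogenin Rgma and Rgmb had both mutants below all controls, at -0.42 and -0.47 (adjusted p = 0.171 and 0.153).

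No Slit or Robo passed the test, with limma or with voom, among the 5 genes tested. An unadjusted p under 0.05 was reached by 1, against 18.9% of all genes. Slit3, expressed in embryonic mesenchyme and the most abundant Slit, was at 25.7 and 22.2 FPKM in mutant libraries and at 15.1, 18.0 and 26.4 FPKM in control libraries. Control replicate 3 was the highest of all (log2 change 0.29, SE 0.22, adjusted p = 0.528). Slit2 was at 4.08 and 3.41 FPKM against 4.24, 3.69 and 3.99 FPKM (log2 change -0.07, 95% interval -0.38 to 0.24; 0.04 with quantile normalization). Slit1, a Slit of the nervous system, was below 0.5 FPKM in each library.

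Robo1, the most abundant Robo, overlapped at 19.8 and 16.2 FPKM against 18.1, 19.3 and 23.2 FPKM (log2 change -0.16, 95% interval -0.49 to 0.18). Robo2 was at 2.17 and 1.93 FPKM in mutant libraries and at 3.02, 2.67 and 3.05 FPKM in control libraries. Both mutants lay below all controls, by a log2 change of -0.36 (SE 0.14, adjusted p = 0.225) and an unadjusted p = 0.0361. Robo4, the endothelial Robo, was at 0.07, and Robo3 was near 0 with 18 reads in mutants against 50 in controls. Robo1 and Robo2 lie near each other on chromosome 16, and Robo3 and Robo4 adjoin on chromosome 9 with 554 bases between them, where reads could be shared if strand was not used.

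Among 14 listed partners of Slit and Robo, 2 fell with limma. That is 14.3%, against 1.37% of all genes called lower, and the difference in share was not tested. Voom, whose background was 4.77%, called these 2 and Enah lower (Enah log2 change -0.49 with limma). Flrt2, a membrane protein that also binds Unc5 receptors, was at 19.1 and 15.7 FPKM in mutant libraries and at 41.0, 34.4 and 49.3 FPKM in control libraries. It was 2.39-fold lower with groups far apart (log2 change -1.20, SE 0.17, adjusted p = 0.0178 with limma). Gpc1, which encodes a heparan sulfate proteoglycan that binds Slits, was at 14.6 and 13.2 FPKM against 21.3, 22.4 and 22.6 FPKM (log2 change -0.63, SE 0.10, adjusted p = 0.0312). Without mutant replicate 1 or mutant replicate 2 neither passed, and Gpc1 also lost the threshold without control replicate 2 (adjusted p = 0.0692) or control replicate 3 (adjusted p = 0.0747). Both lost it with the male share as a covariate and with no filter.

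Over all 5 partner lists, 63 of 64 genes were matched, 52 were tested, 0 were higher and 2 lower. That is 3.85%, against the background of 2.36%, and the median log2 change was -0.09. Of 18 tested semaphorin co-receptors and effectors limma called none. At an unadjusted p under 0.05, 1 was higher and 4 lower (27.8%, against 18.9% of all genes). Dpysl3, a collapsin response mediator of growing neurites, was at 32.1 and 26.5 FPKM against 58.6, 38.4 and 61.0 FPKM (log2 change -0.80, adjusted p = 0.0925), and voom called it lower. Of 13 tested Eph and ephrin effectors limma and voom called none, with 2 lower at an unadjusted p under 0.05 (15.4%, against 18.9%).

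**Figure D3:**
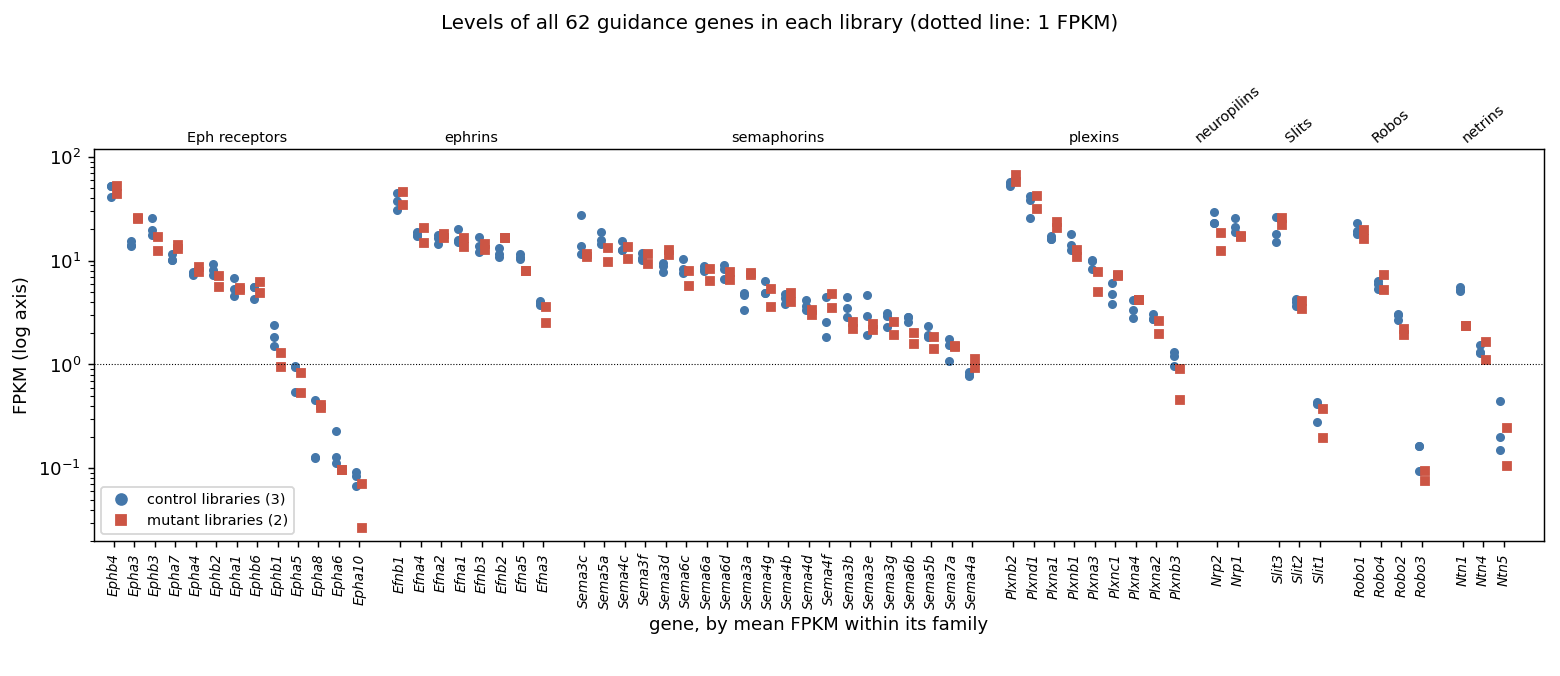
FPKM on a log axis of all 62 members in each library, ordered by mean level within each family, with controls as blue circles and mutants as red squares. Levels run from Plxnb2, at 52.2 to 67.0 FPKM, down to Epha10, under 0.1 FPKM, and the dotted line marks 1 FPKM.

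The order of levels was similar at the top in both groups. Plxnb2, Ephb4, Efnb1 and Plxnd1 held places 1 to 4 in mutants and controls, and Plxnb2 was the highest member in each of the 5 libraries. The ranges of Ephb4 and Efnb1 overlapped within each group, although Ephb4 was above Efnb1 in each of the 5 libraries. The ranges of Efnb1 and Plxnd1 overlapped as well. In the controls Nrp2 and Nrp1 came next, at places 5 and 6, and in the mutants they stood at places 13 and 11. Epha3 and Slit3 took places 5 and 6 in the mutants. At the bottom, Epha6, Robo3 and Epha10 held places 60 to 62 in both groups.

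Some lists of cell type markers differed between the groups and others overlapped, and they are given beside these results. Of all genes tested, 0.989% were called higher and 1.37% lower. Skeletal muscle markers, of which 8 of 9 tested fell, summed to 17.1 and 41.4 FPKM in mutant libraries and 163 to 219 FPKM in the controls. Neuron markers, with 4 of 12 lower (Dbh, Uchl1, Ret and Tubb3), summed to 111 and 90.2 FPKM against 158 to 207 FPKM, and glia and neural crest markers, with none of 8 called, to 54.7 and 41.0 against 51.5 to 77.7 FPKM. Cartilage markers, with 4 of 4 tested lower, summed to 35.9 and 26.2 against 71.3 to 104 FPKM. In smooth muscle 1 of 6 fell (200 and 160 against 272 to 428 FPKM), and in lung mesenchyme 3 of 10 rose, namely Fgf10, Tbx4 and Wnt2. The lung mesenchyme sum (1577 and 1311 against 1484 to 1940 FPKM) is mostly Col1a1 and Col3a1, which had both mutants below all controls. Tbx5, Foxf1 and Tcf21 had both mutants above all controls without passing, and Pdgfra and Lum overlapped. Mesothelium markers, with 1 of 6 higher, summed to 104 and 130 against 17.4 to 61.4 FPKM. Heart muscle markers, with 0 of 6 called, varied widely within both groups, at 129 and 364 against 185 to 834 FPKM. Lymphatic endothelium markers (0 of 3 called) summed to 27.6 and 27.4 against 22.4 to 36.8 FPKM. Macrophage and blood markers (0 of 7 called) summed to 922 and 1076 against 906 to 1761 FPKM. Most of that sum is Hba-a1, at 847 and 1003 against 849 to 1717 FPKM. No marker was at 0 in all libraries of either group, and the part of these cell types in the changes of Epha3 and Ntn1 was not tested.

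Endothelial markers, which matter for Ephb4, Efnb2, Plxnd1 and Robo4, were called in 0 of 10 and summed to 194 and 157 FPKM in the mutants against 138 to 203 FPKM in the controls. Epithelial markers, with Foxa1 the 1 of 14 that fell, summed to 333 FPKM in each mutant against 313 to 815 FPKM. The part of the epithelial share in the values of Ntn1 was not tested.

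**Figure D4:**
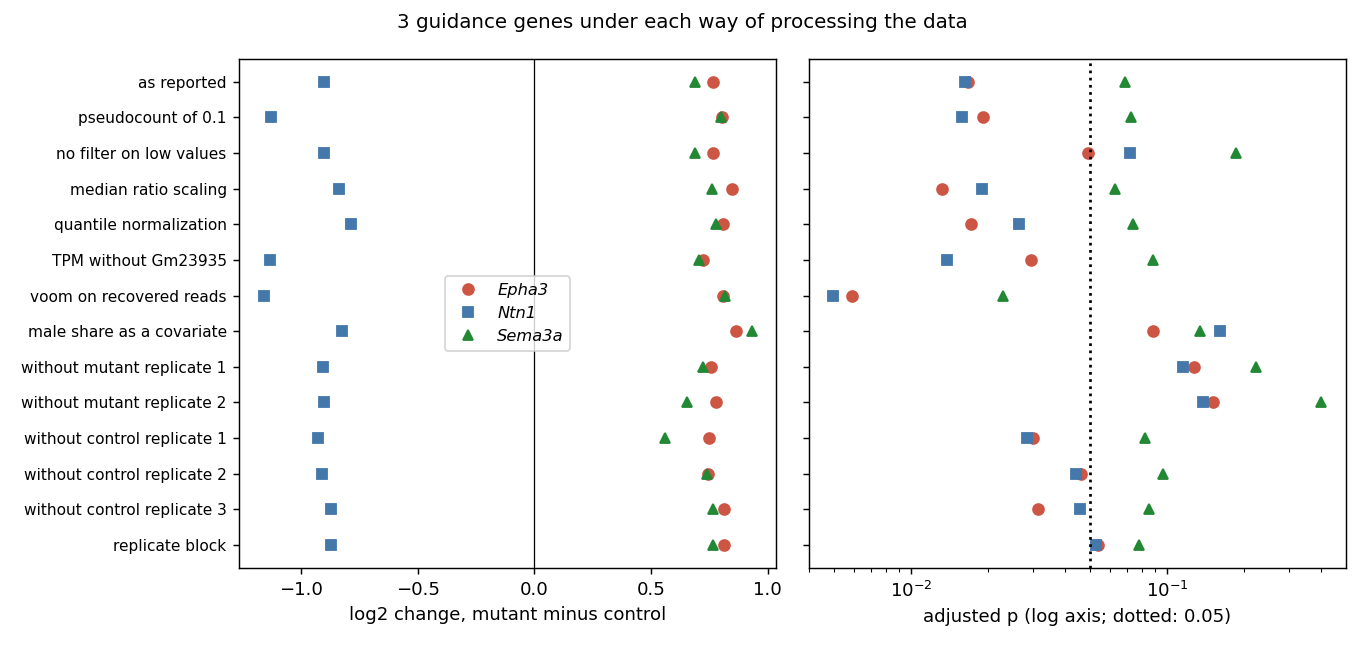
Log2 change (left) and adjusted p on a log axis (right) of Epha3, Ntn1 and Sema3a as reported and under 13 other ways of processing the data. The signs stay the same throughout. The adjusted p of Epha3 and Ntn1 crosses 0.05 with the male share as a covariate, with a replicate block and without either mutant library. That of Ntn1 also crosses 0.05 with no filter on low values.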

How the data were processed

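The authors deposited 1 table of FPKM values, so called in its name, for 19699 gene entries in 5 libraries. Per the submitters' processing notes the genome build was GRCm38 (mm10). Aligner, counter, annotation and strand use: not given in the sources used here. A treatment text in the labels describes adipocyte culture and was not used. Reads per gene and library denominators were recovered from the spacing of FPKM values with GENCODE M21 exon lengths; where a length differed, they hold up to one common factor, Epha3 included. Gene positions come from the same annotation.

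Genes reaching 1 FPKM in at least 2 libraries (12838) were tested with limma 3.58.1 in R 4.3.3 (lmFit, trended eBayes, two-sided) on log2(FPKM + 1), which understates changes of low genes. Benjamini-Hochberg adjustment ran over all of them, with a threshold of 0.05. The script was tested on simulated data. Voom used the recovered reads. The male share is each library's summed level of 4 Y-linked genes, scaled to the highest.

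The members and lists were chosen with earlier results of these data known. Named with values in every library are members past the threshold or with an unadjusted p under 0.01, the most abundant member and the smallest p of each family, partner genes past the threshold, and Prmt5, Epha2, Ntn1, Sema3a, Sema3c, Sema3e, Sema3f, Nrp1, Nrp2, Slit2, Slit3, Robo1, Robo2, Efnb2, Ephb4 and Plxnd1. All other named genes were picked after seeing their values, or to account for every member. Hjv and Cnmd, listed among partners and markers, were not matched and not analysed here. Alternatives were another pseudocount, no filter, other scalings, voom, the male share, a replicate block and leaving out each library.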

Additional observations from a re-analysis of the deposited data

How the results depend on the processing

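Of 12838 genes tested, 303 passed with limma. Dropping the filter on low values gave 69, voom on the recovered reads 612, the male share as a covariate 55, and leaving out 1 library at a time 4 to 284. Of the members 2 passed, 1 with no filter, 0 with the male share, and 2 leaving out 1 control. Of the partner genes 2 passed, 0 with no filter, 0 with the male share, and 1 or 2 leaving out 1 control. Voom called 4 partner genes, against a background of 4.77%. In fits with 1 mutant library no call of a member or partner gene held. With the male share, 11 of 54 members and 9 of 52 partner genes had an unadjusted p under 0.05. The same held for 1369 of 12838 genes. With no filter it held for 10 of 63 partner genes and 2906 of 19699 genes. A fit with 1 mutant assumes that it varies like the controls. The cause of these differences was not tested, and some of these fits also hold fewer samples or more genes.

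Between libraries with the same replicate number, deviations from group means correlated at -0.067 and 0.02 over the 2 pairs. With 2 mutant libraries their deviations mirror each other, so the 2 values are not independent. They cannot settle whether the replicate numbers pair the libraries. With the replicate block, control replicate 3 has no partner and does not bear on the change. Members past the threshold then numbered 0 by limma (Ntn1 at adjusted p = 0.053, Epha3 at 0.0536) and partner genes 1. An unadjusted p under 0.05 was reached by 14 of 54 members, against 1837 of 12838 genes.

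Among the named genes, signs turned for 6 members near 0. Ephb4 was at 0.0657 with median ratio scaling, 0.12 with the male share, 0.036 with the replicate block and -0.14 to 0.11 leaving out 1 library. Sema3f was at 0.0127 with median ratio scaling and 0.0069 with quantile normalization, Efnb1 at -0.0029 and Plxnd1 at -0.0061 with TPM without Gm23935, Slit2 at 0.0354 with quantile normalization, and Robo1 at 0.0429 with the male share. Leaving out 1 library gave -0.14 to 0.27 for Efnb1, -0.21 to 0.0779 for Sema3f, -0.17 to 0.0309 for Slit2 and -0.14 to 0.26 for Plxnd1. With 2 mutant libraries, small differences were not detectable at this number of samples.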
